A study of Mus musculus with 4 samples.

Results

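The retina of wildtype control littermates was compared between postnatal day 7 (P7) and postnatal day 14 (P14), in a pair of libraries out of the 4 of the series. Both libraries came from mice on the background that the labels give as C57/BL/6J, with 1 library at each age, and the labels do not give the number or the sex of the mice. The same ages were sequenced in Fezf2 knockout (KO) littermates, Fezf2 being a zinc-finger transcription factor, also with 1 library each. That KO pair shares no library with the control pair and is set beside it below. Genes were compared by symbol: the files list 22558 symbols at 23021 loci, and 13117 genes were at 1 FPKM or more in either control library once small RNAs and loci under 300 bases were left out. FPKM is the number of fragments per kilobase of transcript and per 1000000 mapped fragments. Every difference below is log2(FPKM + 1) at P14 minus the same at P7, a scale on which differences of low genes come out too small. Where a pair of levels is given, the first is P7 and the second P14, and a number in parentheses after it is the difference.

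The week between these ages covers the end of retinal neurogenesis and the functional maturation of the tissue. In the first postnatal week the last rods, bipolar cells and Mueller glia leave the cell cycle. In the second week rods and cones build outer segments, the stacked membrane discs that hold the visual pigment, ribbon synapses form in the outer plexiform layer, and the eyes open near its end. Rods make up most cells of the mouse retina, so that their transcripts weigh heavily in whole-tissue RNA.

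The libraries carried the marks of retina at both ages. Markers of rods (Sag, 1045 and 2404 FPKM), bipolar (Prkca, 39.7 and 33.7 FPKM), amacrine (Gad1, 53.9 and 102 FPKM) and Mueller cells (Rlbp1, 179 and 301 FPKM) were all present. Fezf2 itself was at 8.32 FPKM at P7 and 4.02 FPKM at P14 in the controls and at 0.592 and 0.126 FPKM in the KO libraries. Among neighbouring tissues, the pigment epithelium gene Rpe65 was at 1.84 and 20.9 FPKM and the lens gene Cryaa at 0.122 and 4.63 FPKM, while the skeletal muscle myosin gene Myh2 was at 0.0153 FPKM or less in each library. Xist was at 27.5 and 24.9 FPKM in the control libraries and at 15.6 and 15.6 FPKM in the KO libraries, and no Y-linked gene checked (Ddx3y, Uty, Eif2s3y and Kdm5d) exceeded 0.360 FPKM in any library. With 1 library per age there is no replicate and no test. The deposited lower and upper bounds cover counting error within a library only, not differences between mice or dissections. Their median half-width was 14.1% of the level at P7 and 15.5% at P14 for loci at 1 to 10 FPKM, and 6.26% and 7.62% above 10 FPKM.

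Most genes were at similar levels at both ages, and a tail on each side was not. Across the 13117 genes, levels at the 2 ages correlated with a Pearson r of 0.905 on the log2 scale, and 62.7% of genes lay within 1.5-fold. The median difference was -0.082, with quartiles of -0.50 and 0.36. At least 2-fold higher at P14 were 930 genes (7.09%), and at least 2-fold lower were 909 genes (6.93%), 14.0% in all. Differences of 4-fold or more were found in 156 genes upward and 69 downward, and of 8-fold or more in 33 and 10. The bounds of the 2 libraries did not overlap for 65.3% of genes, 27.6% higher and 37.7% lower at P14, so bounds that stand apart are the usual case here and single out no gene. The 10 highest genes held 4.05% of the summed FPKM at P7 and 8.04% at P14.

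**Figure D1:**
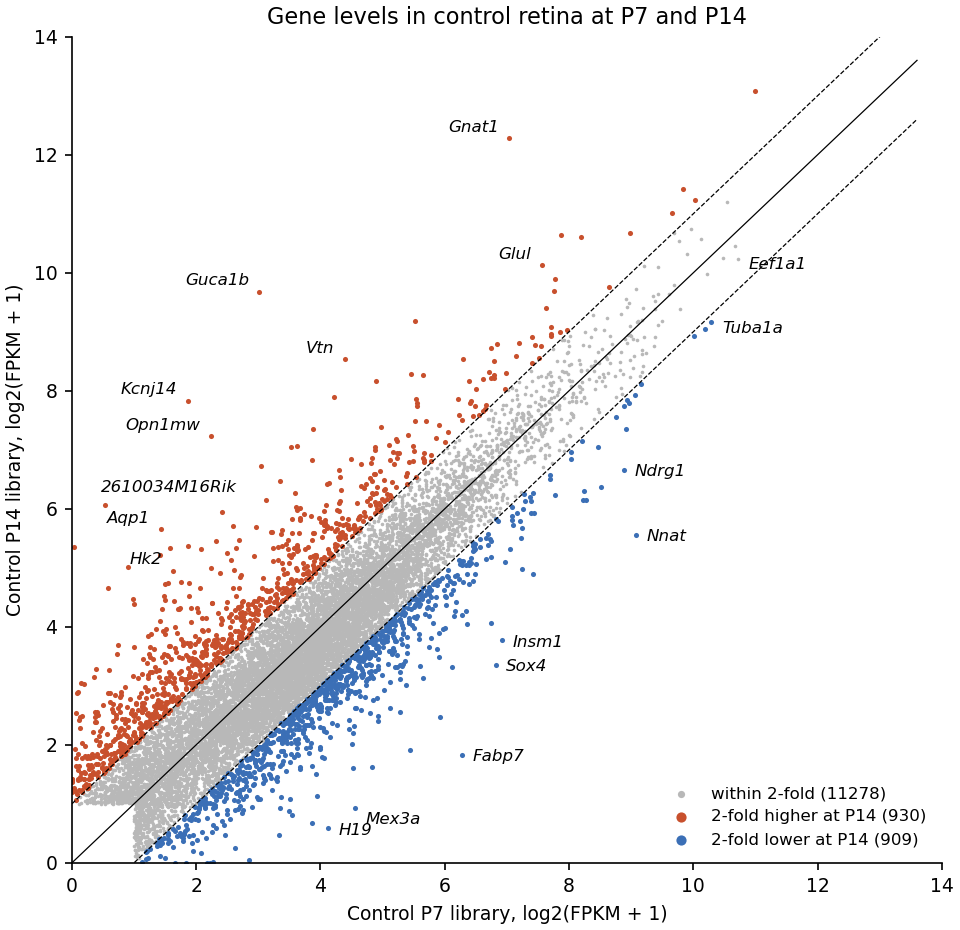
Levels of the genes tested in the control P7 library (x axis) and the control P14 library (y axis), both as log2(FPKM + 1), 1 point per gene. Orange points are the 930 genes at least 2-fold higher at P14, blue points the 909 at least 2-fold lower and grey points the rest. The solid line marks equal levels and the dashed lines a 2-fold difference.

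Among genes at 1 locus outside the X and Y chromosomes, those with the largest positive differences included parts of the rod light response, water and potassium channels, neuropeptides and a histone. Of the genes set aside by that choice, Opn1mw, an X-linked cone opsin at 3.70 and 149 FPKM (4.998), and Hba-a2, an alpha globin listed at 2 loci, at 0.0201 and 40.1 FPKM (5.33), had differences as large. Guca1b, the guanylate cyclase activator known as GCAP2, stood at 7.09 FPKM at P7 and 819.8 FPKM at P14, a difference of 6.67 (bounds 5.61 to 7.75 and 713 to 738 FPKM), and lies at chr17:47522342-47529916 of the mm9 build. Its neighbour on that chromosome, Guca1a (chr17:47531507-47537533), which encodes GCAP1, was at 45.2 and 582 FPKM (3.66). Kcnj14, an inward rectifier potassium channel, lies at chr7:53071837-53080117 and was at 2.64 and 227 FPKM (5.97). The gene 2610034M16Rik at chr17:59018231-59130798, which RefSeq now names Pdzph1, was below 1 FPKM at P7, at 0.449 and 66.1 FPKM (5.53). Gnat1, the alpha subunit of rod transducin, was at 130.3 and 4979 FPKM (5.25) and reached one of the highest levels of the P14 library. Aqp1, a water channel, was at 1.69 and 49.5 FPKM (4.23).

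Another neighbouring pair stood among the genes with the largest positive differences. Vtn, which encodes the adhesive glycoprotein vitronectin (chr11:78312622-78315827), was at 19.9 and 369 FPKM (4.14), and the homeobox gene Sebox next to it (chr11:78317015-78318584) was at 4.35 and 60.7 FPKM (3.53). Genes of signalling peptides included Cck, the cholecystokinin precursor, at 0.492 and 24.1 FPKM (4.07), and Tac2, the neurokinin B precursor, at 1.66 and 36.3 FPKM (3.81). Pvalb, the calcium buffer parvalbumin, was at 0.862 and 31.3 FPKM (4.12), and Drd4, the dopamine D4 receptor, at 10.5 and 131 FPKM (3.52). Lrtm1, a leucine-rich repeat membrane protein, was at 1.98 and 39.5 FPKM (3.76), within the span of Cacna2d3, whose reads cannot be told apart from it without strand information. In the KO pair the 15 genes of this ranking, Hist1h2bc and Slc24a1 included, were all higher at P14, with differences of 3.38 or more. Opn1mw was higher there too (5.31), and Hba-a2 was lower (-4.54).

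The largest negative differences, ranked in the same way, included members of the immature neuron list. Of these Fabp7, the brain fatty acid binding protein, is not particular to neurons. Fabp7 stood at 76.8 FPKM at P7 and 2.56 FPKM at P14 (-4.45, bounds 53.6 to 62.9 and 1.34 to 3.56 FPKM), and lies at chr10:57504729-57508256. Mex3a, an RNA-binding protein, was at 22.5 and 0.913 FPKM (-3.62), and the imprinted noncoding RNA H19 at 16.5 and 0.499 FPKM (-3.54). Nnat, the imprinted gene of the membrane proteolipid neuronatin, was among the highest of these at P7, at 538 and 46.1 FPKM (-3.52), and its locus lies within that of Blcap. Sox4, a transcription factor of newborn neurons, was at 112 and 9.25 FPKM (-3.46), and Insm1, a zinc-finger factor of differentiating neurons, at 121 and 12.6 FPKM (-3.16). Kif19a, a kinesin, was at 42.5 and 2.76 FPKM (-3.53).

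Genes of other functions stood beside them. Abca1, the cholesterol exporter, was at 27.5 and 2.07 FPKM (-3.22), and Arhgap31, a GTPase-activating protein for small GTPases, at 59.4 and 4.55 FPKM (-3.44). Chrnb4, a nicotinic acetylcholine receptor subunit, was at 14.5 and 1.20 FPKM (-2.81). Scube3, Mycl1, 3110035E14Rik and Ppp1r14b had differences between -3.19 and -2.80. The same ranking held Amd1, at 6.23 and 0.0311 FPKM (-2.81), the enzyme of polyamine synthesis, but its locus coincides with that of Amd2, which was at 15.3 and 44.9 FPKM in the control pair. Amd1 was at 0.0244 and 0.0206 FPKM in the KO pair, so its value is uncertain. The other 14 of these 15 genes were lower at P14 in the KO pair as well, with differences of -2.76 or below.

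**Figure D2:**
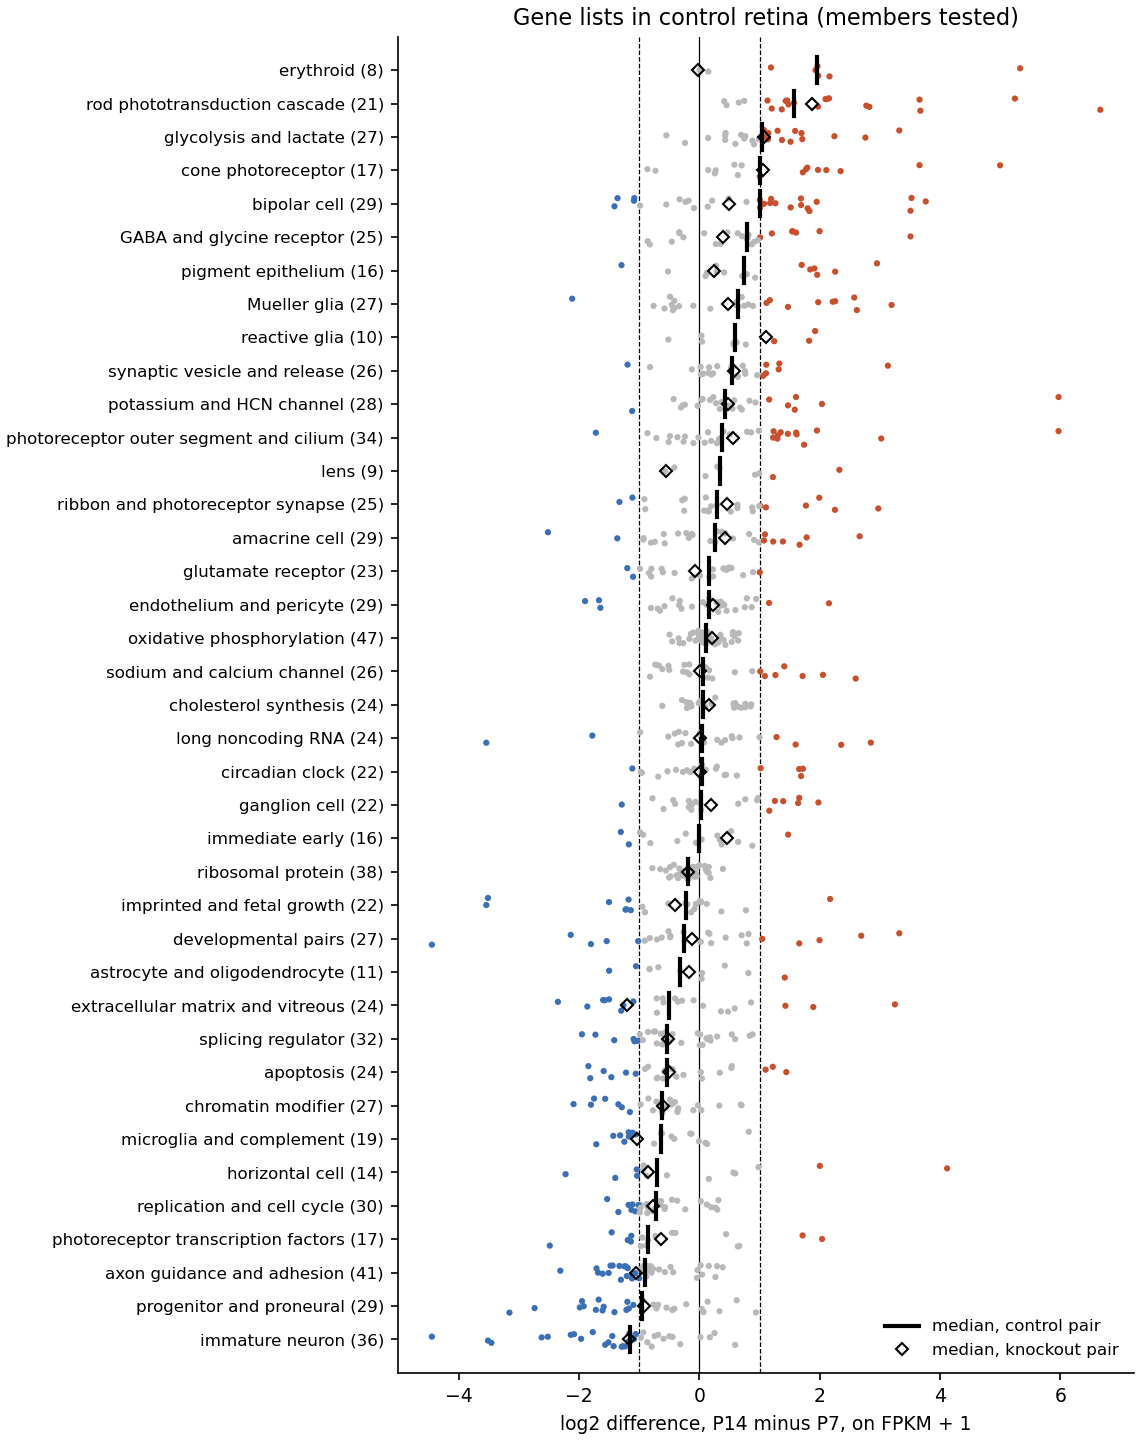
Difference between P14 and P7 for the tested members of 39 gene lists (x axis, log2 scale on FPKM + 1), 1 point per gene, with orange and blue for members past 2-fold. Vertical bars are the control medians and open diamonds the medians of the same members in the Fezf2 KO pair, and the dashed lines mark 2-fold. Erythroid and rod cascade members have the highest control medians and immature neuron members the lowest.

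The 39 lists hold 1060 places for genes in the files, some of them for the same gene. Of these 955 were tested and 105 were below 1 FPKM in both control libraries. The shares over all genes tested, to set beside the counts of each list, were 7.09% higher and 6.93% lower. The plot of differences by list shows the rod cascade, cone, bipolar and glycolysis lists with medians above 0, and the immature neuron, progenitor, guidance and photoreceptor transcription factor lists with medians below 0.

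Phototransduction in rods runs through the G protein transducin to the cGMP phosphodiesterase, whose activity closes cyclic nucleotide-gated channels. Arrestin, the kinase GRK1, the RGS9 complex and the guanylate cyclases with their calcium-sensing activators restore the dark state. All 21 members of this cascade were higher at P14, 17 of them at least 2-fold (81.0% against 7.09% of all genes tested), and the bounds stood apart for each. The median difference was 1.57, and 1.88 in the KO pair. Together they held 2.36% of the summed FPKM at P7 and 7.84% at P14. In whole tissue, more cells of a type and more RNA per cell cannot be told apart.

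The members of the cascade differed widely in size. Among the transducin subunits the alpha gene Gnat1 had by far the largest difference, while the gamma gene Gngt1 was at 218 and 946 FPKM (2.12) and the beta gene Gnb1, which many cell types use, at 1109 and 1517 FPKM (0.45). At P7 the level of Gnat1 was thus below those of Gngt1 and Gnb1, and at P14 it was above both. The phosphodiesterase subunits also started from unequal levels. The catalytic alpha gene Pde6a was at 43.0 and 311 FPKM (2.82), the catalytic beta gene Pde6b at 231 and 507 FPKM (1.13) and the inhibitory gamma gene Pde6g at 917 and 2728 FPKM (1.57). Pde6a was below Pde6b at both ages, by a smaller ratio at P14.

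The channel and exchanger genes were as uneven. Cnga1, the alpha subunit of the rod channel, was at 106 and 297 FPKM (1.48) and its partner Cngb1 at 213 and 284 FPKM (0.41), the smallest difference of the cascade. The files list Cngb1 at 2 loci, which were summed, and 1 of them overlaps Tnrc18. Slc24a1, the sodium/calcium-potassium exchanger of the rod outer segment, was at 17.6 and 236 FPKM (3.67). In the recovery arm, the kinase gene Grk1 was at 33.4 and 134 FPKM (1.97), recoverin Rcvrn at 233 and 1599 FPKM (2.77) and arrestin Sag at 1045 and 2404 FPKM (1.20). The cyclase genes Gucy2e and Gucy2f were at 19.6 and 52.1 FPKM (1.37) and 2.78 and 15.8 FPKM (2.15), small beside the differences of their activators Guca1a and Guca1b.

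The complex that shuts off transducin and the protein that binds its beta-gamma subunits completed the cascade. Rgs9 was at 90.0 and 152 FPKM (0.75), its membrane anchor Rgs9bp at 29.2 and 82.1 FPKM (1.46) and its obligate partner Gnb5 at 141 and 383 FPKM (1.43). Pdc, phosducin, was already at 1498 FPKM at P7 and at 2356 FPKM at P14 (0.65), with a locus that overlaps 2310030A07Rik. Pdc, Gnb1, Sag and Pde6g, all abundant at P7, had differences of 0.45 to 1.57.

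**Figure D3:**
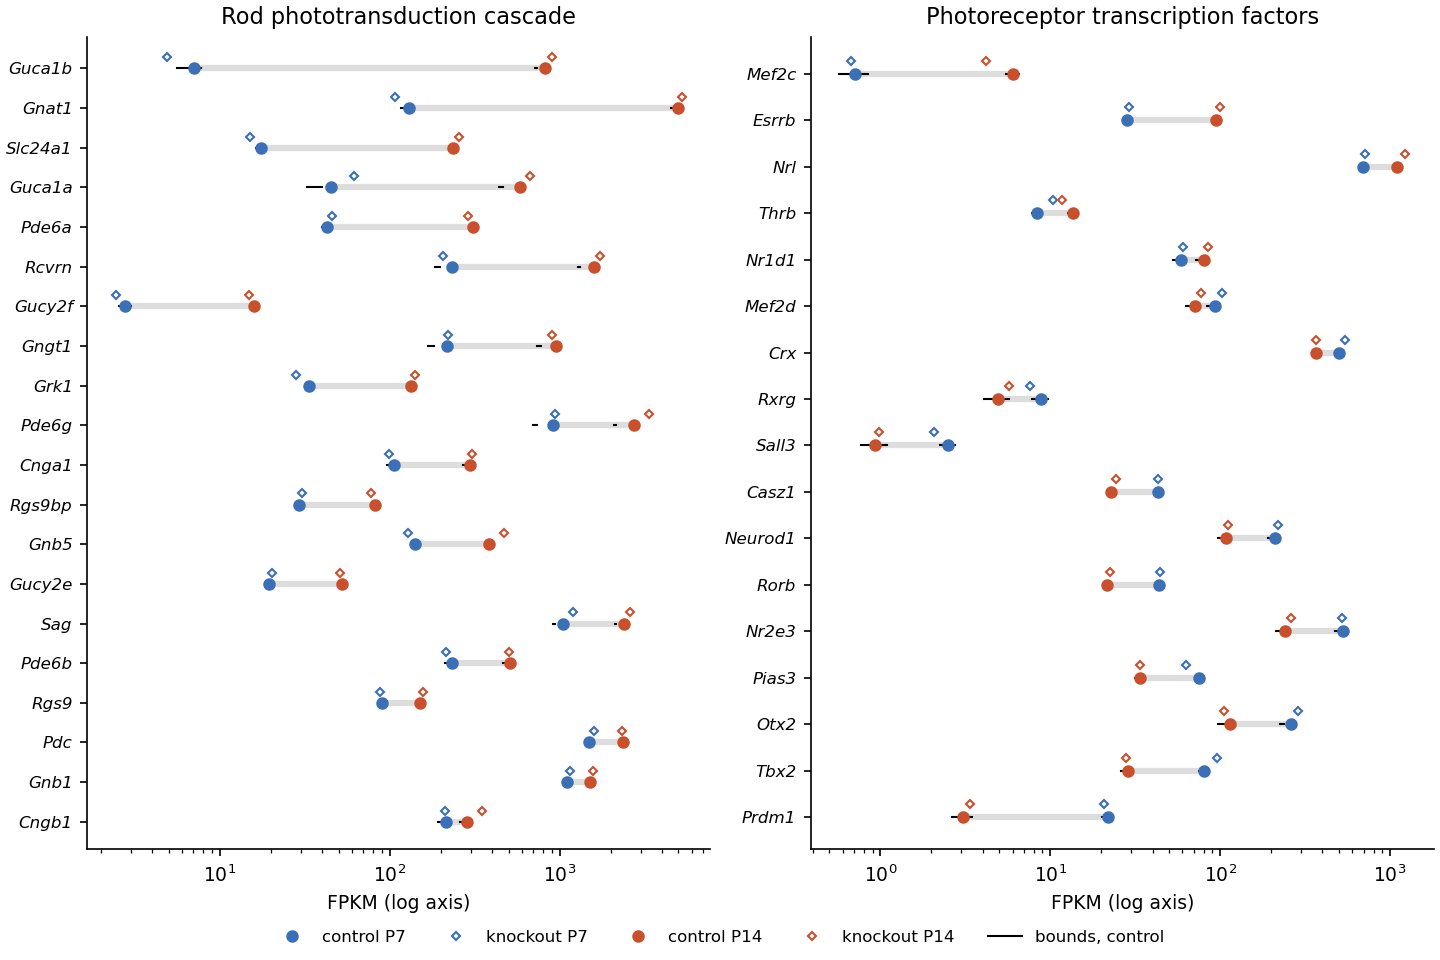
Levels in FPKM (log x axis) of genes of the rod phototransduction cascade (left) and of photoreceptor transcription factors (right), with 1 row per gene ordered by the control difference. Filled circles are the control libraries, open diamonds the Fezf2 KO libraries, blue P7 and orange P14, and black lines are the deposited bounds of the control levels, which for highly expressed genes can lie below the level itself. P14 circles lie to the right of P7 circles in all cascade genes shown, and to the left in 12 of the 17 transcription factors.

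CRX, the homeobox factor common to rods and cones, recognises the letters TAATCC. Promoters of the cascade, from 250 bases before to 50 bases after the start of the gene, were therefore searched for TAATCC on either strand (GGATTA on the strand printed is the same motif reversed). RefSeq promoters (build GRCm38.p6, not the mm9 build of the levels) were matched for 14 of the 21 genes, and 8 of the 14 (57.1%) held the motif. The share was 5.82% of 11930 promoters of all genes tested, 10.1% for genes 2-fold higher at P14, 16.7% for those 4-fold higher and 5.93% for those 2-fold lower. Outer segment and cilium genes held it in 22.6% of 31 promoters. The 6 cascade promoters with the motif whose genes had the largest differences are shown because they let the spacing of the motif from the start be compared, with the motif in capitals.
Guca1a, chr17:47400557-47400856, minus strand: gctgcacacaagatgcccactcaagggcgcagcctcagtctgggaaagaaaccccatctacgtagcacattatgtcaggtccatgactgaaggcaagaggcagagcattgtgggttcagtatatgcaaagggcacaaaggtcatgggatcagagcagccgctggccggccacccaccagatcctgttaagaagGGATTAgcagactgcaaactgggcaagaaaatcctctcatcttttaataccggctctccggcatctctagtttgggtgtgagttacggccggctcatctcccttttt
Gucy2f, chrX:142196887-142197186, minus strand: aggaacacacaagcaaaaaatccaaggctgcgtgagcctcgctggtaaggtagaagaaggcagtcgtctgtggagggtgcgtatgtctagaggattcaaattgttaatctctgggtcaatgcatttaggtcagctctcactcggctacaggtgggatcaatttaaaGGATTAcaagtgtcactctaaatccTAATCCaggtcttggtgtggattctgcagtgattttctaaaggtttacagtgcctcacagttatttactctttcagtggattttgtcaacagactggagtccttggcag
Gngt1, chr6:3993758-3994057, plus strand: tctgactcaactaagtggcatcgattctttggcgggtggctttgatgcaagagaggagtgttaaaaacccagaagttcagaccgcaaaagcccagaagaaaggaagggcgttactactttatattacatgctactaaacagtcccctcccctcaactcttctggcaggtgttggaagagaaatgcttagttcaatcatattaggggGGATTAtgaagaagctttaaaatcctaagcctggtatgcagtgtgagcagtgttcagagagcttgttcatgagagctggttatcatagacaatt
Cnga1, chr5:72642703-72643002, minus strand: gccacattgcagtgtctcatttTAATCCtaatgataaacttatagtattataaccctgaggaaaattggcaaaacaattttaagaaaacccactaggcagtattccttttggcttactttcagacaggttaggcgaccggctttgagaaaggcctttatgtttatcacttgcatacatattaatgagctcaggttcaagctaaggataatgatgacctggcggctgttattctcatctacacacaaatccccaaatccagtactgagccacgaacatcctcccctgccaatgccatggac
Gnb5, chr9:75306038-75306337, plus strand: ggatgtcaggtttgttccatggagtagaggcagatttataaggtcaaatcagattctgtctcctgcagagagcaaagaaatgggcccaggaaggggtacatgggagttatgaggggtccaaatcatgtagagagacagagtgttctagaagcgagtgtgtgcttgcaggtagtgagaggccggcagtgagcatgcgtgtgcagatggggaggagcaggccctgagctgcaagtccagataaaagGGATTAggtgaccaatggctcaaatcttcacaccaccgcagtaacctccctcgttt
Gucy2e, chr11:69236973-69237272, minus strand: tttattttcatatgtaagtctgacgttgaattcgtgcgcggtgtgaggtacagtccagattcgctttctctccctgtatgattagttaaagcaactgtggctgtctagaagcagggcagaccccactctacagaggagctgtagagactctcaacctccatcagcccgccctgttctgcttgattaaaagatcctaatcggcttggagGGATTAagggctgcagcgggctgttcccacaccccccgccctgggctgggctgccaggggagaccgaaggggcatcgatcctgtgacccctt
The motif stood in the last 100 bases before the start in 5 of these 6 promoters, and Gucy2f held it on both strands. A match is a description of letters, not of binding. Slc24a1, with the third largest difference of the cascade, held no TAATCC in this window.

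Genes of the outer segment and its connecting cilium were higher less uniformly. Of 34 tested, 12 were at least 2-fold higher (35.3%) and 1 at least 2-fold lower, with a median of 0.38. Fscn2, the photoreceptor fascin that bundles actin where discs form, was at 7.74 and 70.0 FPKM (3.02). Prph2, the disc rim protein peripherin-2, was at 809 and 2063 FPKM (1.35), and its partner Rom1 at 993 and 1720 FPKM (0.79). Retinoid enzymes were among the higher members, with Rdh8 at 24.1 and 82.8 FPKM (1.74) and Rdh12 at 104 and 319 FPKM (1.61), as was the retinoid-lipid transporter Abca4 at 31.8 and 79.4 FPKM (1.30). Other members were near 0. Rpgrip1, of the connecting cilium, was at 39.3 and 33.1 FPKM (-0.24), Rp1 at 207 and 205 FPKM (-0.018) and Ahi1 at 23.9 and 22.2 FPKM (-0.10). The 1 member at least 2-fold lower was Samd7, a photoreceptor repressor protein, at 149 and 44.5 FPKM (-1.72).

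Photoreceptor transcription factors were mostly lower. Of 17 tested, 12 were lower at P14 and 5 at least 2-fold lower, against 2 at least 2-fold higher, with a median of -0.86. Prdm1, which stabilises the photoreceptor fate against the bipolar fate, had the largest difference, at 21.8 and 3.06 FPKM (-2.49). Otx2, which acts upstream of both fates, was at 261 and 113.6 FPKM (-1.19), and Crx, which it activates, at 502 and 365 FPKM (-0.46). Nrl, which specifies rods, was at 693 and 1098 FPKM (0.66), while Nr2e3, which represses cone genes in rods, was at 531 and 242 FPKM (-1.13). Nrl and Nr2e3, both rod factors, thus differed in opposite directions.

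The remaining factors of the list showed the same split. Neurod1, Rorb, Casz1, Sall3, Rxrg and Mef2d had differences from -0.98 to -0.40. Tbx2, a T-box factor, was at 80.8 and 28.7 FPKM (-1.46), and Pias3, a SUMO ligase that acts on photoreceptor factors, at 75.4 and 33.7 FPKM (-1.14), with a locus that overlaps Nudt17. On the other side stood Esrrb, an orphan nuclear receptor of rods, at 28.2 and 94.9 FPKM (1.71), and Mef2c at 0.707 and 6.01 FPKM (2.04), whose relative Mef2d was far more abundant at 93.5 and 70.6 FPKM. Thrb, the thyroid hormone receptor of cones, was at 8.35 and 13.5 FPKM (0.64) and Nr1d1 at 58.5 and 79.9 FPKM (0.44).

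Cone genes were also higher. Of 17 tested, 9 were at least 2-fold higher (52.9%) and none 2-fold lower, with a median of 1.003, though Grk1 and Guca1a are shared with rods. The cone opsins differed in the size of their difference. Opn1mw, the middle-wavelength opsin, was at 3.70 and 149 FPKM (4.998), and Opn1sw, the short-wavelength opsin, at 51.0 and 179 FPKM (1.79). Opn1sw was thus the more abundant by a wide margin at P7, and their levels were near one another at P14. Gnat2, the cone transducin alpha subunit, was at 24.1 and 107 FPKM (2.11), cone arrestin Arr3 at 11.3 and 40.9 FPKM (1.77) and the cone phosphodiesterase gamma gene Pde6h at 109 and 362 FPKM (1.72). Kcne2, a potassium channel subunit, was at 11.7 and 63.7 FPKM (2.35). Gnb3, the beta subunit shared by cone and ON bipolar signalling, was lower at P14, at 246 and 135 FPKM (-0.87), and Pde6c, the catalytic cone subunit, was at 16.6 and 25.2 FPKM (0.58).

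Photoreceptors release glutamate at ribbon synapses, which hold vesicles beside calcium channels. Of 25 genes of this synapse tested, 6 were at least 2-fold higher (24.0% against 7.09% of all genes). At least 2-fold lower were 2 (8.0% against 6.93%), and the median was 0.29. Cabp4, the calcium-binding regulator of the photoreceptor channel, was at 13.5 and 113 FPKM (2.97), and the channel's pore gene Cacna1f at 9.66 and 18.6 FPKM (0.88). The complexin Cplx4 was at 45.7 and 222 FPKM (2.25), its relative Cplx3 at 133 and 206 FPKM (0.63) and the vesicular glutamate transporter Slc17a7 at 198 and 676 FPKM (1.77). The scaffold genes Bsn, bassoon, and Pclo, piccolo, were at 10.2 and 5.02 FPKM (-0.90) and 8.88 and 4.24 FPKM (-0.92). Dag1, dystroglycan, was at 44.3 and 17.0 FPKM (-1.33), whereas its ligand pikachurin, Egflam, was at 34.3 and 38.3 FPKM (0.16).

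Among general vesicle genes 6 of 26 were at least 2-fold higher (23.1% against 7.09% of all genes). At least 2-fold lower was 1 (3.85% against 6.93%), and the median was 0.54. Vamp1 was at 3.996 and 42.8 FPKM (3.13) and its relative Vamp2, the more abundant vesicle SNARE at both ages, at 339 and 526 FPKM (0.63). Complexins diverged, with Cplx1 at 43.7 and 111 FPKM (1.33) and Cplx2 at 207 and 89.7 FPKM (-1.20). Synaptophysin, Syp, a marker of vesicle number, was at 575 and 585 FPKM (0.024).

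Bipolar cells relay photoreceptor signals to the inner retina, and the ON types do so through the receptor mGluR6 and the channel TRPM1. Of 29 bipolar genes tested, 15 were at least 2-fold higher (51.7%) and 4 at least 2-fold lower, with a median of 1.002 and of 0.49 in the KO pair. Trpm1 was at 10.2 and 38.7 FPKM (1.83), Nyx, the nyctalopin that anchors it, at 1.93 and 10.3 FPKM (1.95), and Rgs11, which speeds the deactivation of the cascade, at 5.25 and 16.9 FPKM (1.52). The receptor itself, Grm6, was at 19.9 and 28.2 FPKM (0.49), and the ON cascade gene Gpr179 at 10.6 and 11.7 FPKM (0.14). Of genes of calcium-binding proteins, Cabp5 was at 18.7 and 67.7 FPKM (1.799) and Scgn, secretagogin, at 25.2 and 58.1 FPKM (1.17). Transcription factors of the list lay on both sides. Sebox, given above, was higher, whereas Lhx4 was at 28.5 and 10.5 FPKM (-1.36), Vsx1 at 33.3 and 15.1 FPKM (-1.09) and Isl1 at 88.8 and 41.3 FPKM (-1.08). Prkca, a rod bipolar marker, was at 39.7 and 33.7 FPKM (-0.23).

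Amacrine cells are the inhibitory interneurons of the inner retina. Of 29 of their genes tested, 7 were at least 2-fold higher (24.1% against 7.09% of all genes). At least 2-fold lower were 2 (6.90% against 6.93%), and the median was 0.26. Vip, a neuropeptide gene, was at 0.988 and 11.6 FPKM (2.66) and Slc17a8, the third vesicular glutamate transporter, at 0.711 and 4.88 FPKM (1.78). Of genes of cholinergic starburst cells, the choline transporter Slc5a7 was at 1.69 and 5.29 FPKM (1.23), Chat at 1.05 and 5.50 FPKM (1.66) and Slc18a3, which overlaps Chat, at 5.79 and 7.13 FPKM (0.26). Th, the dopamine enzyme, was at 0.740 and 2.70 FPKM (1.09), and Gad1, which makes GABA, at 53.9 and 102 FPKM (0.91). Npy was lower, at 170.1 and 28.8 FPKM (-2.52), as was the specification factor Prdm13, at 25.5 and 9.28 FPKM (-1.37).

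Ganglion and horizontal cells held genes on both sides. Of 22 ganglion cell genes, 6 were at least 2-fold higher (27.3% against 7.09% of all genes). At least 2-fold lower was 1, Gap43 (4.55% against 6.93%), and the median was 0.021. The neurofilament genes Nefl and Nefh were at 235 and 461 FPKM (0.97) and 18.7 and 61.2 FPKM (1.66), the latter at a locus that overlaps Ap1b1, while Nefm was at 88.2 and 89.2 FPKM (0.015). Nrn1, neuritin, was at 16.001 and 66.0 FPKM (1.98), and the specification factor Pou4f1 at 13.3 and 9.55 FPKM (-0.44). Of 14 horizontal cell genes, 2 were at least 2-fold higher, the calcium buffers Pvalb and Calb1 (9.36 and 40.5 FPKM, 2.001), neither particular to horizontal cells, and 4 at least 2-fold lower. Ndrg1 was at 472 and 100.1 FPKM (-2.23), beside 764 FPKM summed over the list at P7. The factors Prox1 and Onecut2 were at 69.8 and 25.8 FPKM (-1.40) and 1.72 and 0.322 FPKM (-1.04). The horizontal cell markers Lhx1 and Onecut1 were at 5.20 and 2.23 FPKM and 4.26 and 1.86 FPKM, far below Ndrg1 and Prox1. Which cells gave the Ndrg1 and Prox1 reads was not tested.

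Receptors of inhibition and of excitation were compared as 2 lists. Of 25 genes of GABA and glycine receptors and chloride transport, 7 were at least 2-fold higher and none 2-fold lower (median 0.79, 0.39 in the KO pair). Of 23 glutamate receptor genes, 1 was at least 2-fold higher (4.35%) and 2 at least 2-fold lower (8.70% against 6.93% of all genes). These shares were near those of all genes, and the median was 0.17. Gabrr2, a subunit of the ionotropic GABA receptors of bipolar terminals, was at 2.65 and 40.5 FPKM (3.51). Gabra2, an alpha subunit that is more abundant in young tissue elsewhere in the brain, was also higher, at 2.63 and 5.26 FPKM (0.79), and Gabra5 was at 1.51 and 0.384 FPKM (-0.86). The glycine receptor genes Glra3 and Glrb were at 2.03 and 8.21 FPKM (1.61) and 16.3 and 38.9 FPKM (1.20). The difference between these lists was not tested.

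Pairs of related genes, some of which replace each other in other developing neural tissue, were compared side by side. Slc12a2, which loads chloride into young neurons, was at 10.1 and 5.28 FPKM (-0.83), and Slc12a5, which extrudes it in mature ones, at 57.4 and 102 FPKM (0.82). The NMDA receptor genes Grin2b and Grin2a were at 1.33 and 0.506 FPKM (-0.63) and 0.856 and 1.08 FPKM (0.17). The sodium channel genes Scn3a and Scn8a, the first of immature and the second of mature neurons, were at 3.98 and 2.48 FPKM (-0.51) and 5.96 and 4.85 FPKM (-0.25), so both were lower. Of the Polycomb methyltransferases, Ezh2 was at 10.4 and 2.28 FPKM (-1.805) and Ezh1 at 10.4 and 17.5 FPKM (0.70). Fatty acid binding proteins contrasted most, with Fabp7 lower as above and Fabp12 at 5.24 and 39.2 FPKM (2.69).

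The other pairs were less even. Hk1 was at 117 and 158 FPKM (0.43, a locus that overlaps 2210417K05Rik) against Hk2 at 2.09 and 29.9 FPKM (3.32), and Ldha at 664 and 734 FPKM (0.14) against Ldhb at 99.5 and 206 FPKM (1.04). The tubulins Tubb2b and Tubb4 were at 364 and 81.8 FPKM (-2.14) and 237 and 145 FPKM (-0.71). The adhesion genes Cadm1 and Cadm3 were at 219 and 74.6 FPKM (-1.54) and 114.1 and 94.8 FPKM (-0.27), and Cntn1 and Cntn2 at 41.9 and 21.8 FPKM (-0.91) and 2.20 and 1.29 FPKM (-0.48). Nes, nestin, was at 3.71 and 1.32 FPKM (-1.02), Dnmt3a at 45.6 and 32.2 FPKM (-0.49), and the synaptotagmins Syt1 and Syt11 at 227 and 260.1 FPKM (0.19) and 64.0 and 65.0 FPKM (0.022). Over the 27 genes tested of this list, with Nes and Dnmt3a given here without a partner, 5 were at least 2-fold higher and 5 at least 2-fold lower.

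Among ion channel genes, several accessory subunits were higher. Of 28 potassium and HCN channel genes 6 were at least 2-fold higher and 1 at least 2-fold lower, with a median of 0.42. Besides Kcnj14 these included Kcnc2, a fast delayed rectifier, at 1.75 and 10.3 FPKM (2.04), and the auxiliary genes Kcnip3 at 7.34 and 24.4 FPKM (1.60) and Kcnab2 at 35.3 and 108 FPKM (1.58). Hcn4, a hyperpolarisation-activated channel, was the one lower, at 11.9 and 4.95 FPKM (-1.12). Of 26 sodium and calcium channel genes 7 were at least 2-fold higher and none 2-fold lower, although the median was 0.061. Beta subunits of the sodium channel were among these, with Scn2b at 3.19 and 24.4 FPKM (2.60, at a locus that overlaps Gm10684) and Scn4b at 0.0491 and 2.44 FPKM (1.72), whereas Scn3b was at 13.1 and 10.7 FPKM (-0.27).

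Mueller glia span the retina, recycle glutamate and retinoids and buffer potassium and water. Of 27 genes tested, 9 were at least 2-fold higher (33.3%) and 1 at least 2-fold lower, with a median of 0.65. Aqp4, the water channel of glial endfeet, was at 1.92 and 25.7 FPKM (3.19), and Kcnj10, its potassium partner, at 6.14 and 18.8 FPKM (1.47). Glul, glutamine synthetase, was at 188 and 1124 FPKM (2.57), while Slc1a3, which takes glutamate up, was at 74.4 and 58.6 FPKM (-0.34). Clu, the secreted chaperone clusterin, was at 49.4 and 308 FPKM (2.62) and the iron carrier Trf at 18.9 and 91.6 FPKM (2.22). Rlbp1, the retinaldehyde binding protein, was already abundant at P7, at 179 and 301 FPKM (0.75). Sox9, Sox2 and Vim, which glia share with progenitors, had differences of -0.76, -0.42 and -0.42. Crym, a thyroid hormone binding protein, was the one member 2-fold lower, at 308 and 70.2 FPKM (-2.12).

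Among 10 genes of glial stress, the 3 metallothioneins were at least 2-fold higher, with Mt1 at 36.5 and 141 FPKM (1.92), Mt2 at 18.4 and 44.9 FPKM (1.24) and Mt3 at 18.9 and 69.4 FPKM (1.82). Gfap, the classical marker of reactive glia, was at 9.03 and 9.32 FPKM (0.042), and Lcn2 at 3.90 and 4.01 FPKM (0.033). The median of the list was 0.59 in the control pair and 1.11 in the KO pair. Of 11 tested genes of astrocytes and oligodendrocytes, S100b was at least 2-fold higher, at 2.83 and 9.23 FPKM (1.42), and 2 were at least 2-fold lower. These were the growth factor receptor gene Pdgfra, at 9.53 and 2.71 FPKM (-1.50), and the myelin basic protein gene Mbp, at 14.9 and 6.65 FPKM (-1.06). Which cells of the retina gave these reads was not tested.

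Photoreceptors are known for aerobic glycolysis, and genes of that pathway were higher at P14. Of 27 genes of glycolysis and lactate transport, 14 were at least 2-fold higher (51.9% against 7.09% of all genes) and none 2-fold lower. The median was 1.04, and 1.07 in the KO pair. Hk2, the hexokinase of glycolytic tissue, was at 2.09 FPKM at P7 and 29.9 FPKM at P14 (bounds 1.81 to 2.36 and 27.98 to 31.0 FPKM). Aldoc and Aldoa, the aldolases, were at 77.5 and 371 FPKM (2.24) and 503 and 1632 FPKM (1.70), and Tpi1, Pgk1 and Eno2 had differences of 1.51, 1.37 and 1.59. The lactate transporter genes Slc16a3 and Slc16a1 were at 4.61 and 37.0 FPKM (2.76) and 18.2 and 61.9 FPKM (1.71). Ldha and Pkm2, abundant at P7, had small differences, at 664 and 734 FPKM (0.14) and 951 and 1280 FPKM (0.43), unlike Aldoa, also abundant then. Pdk2 was lower, at 57.1 and 38.7 FPKM (-0.55), and Pdk1, which like it inhibits pyruvate dehydrogenase, was higher, at 5.67 and 13.1 FPKM (1.08).

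The other core pathways stayed near the median of all genes. None of 47 oxidative phosphorylation genes was past 2-fold either way (median 0.11, range -0.50 for Sdhd to 0.65 for Ndufb3). The same held for 24 cholesterol synthesis genes, the highest of them Fdft1 at 0.86, and for 38 ribosomal protein genes, from -0.78 for Rplp0 to 0.39 for Rpl3. Rps27, a ribosomal protein gene outside this list, was at 26.8 and 4.82 FPKM (-2.26), at a locus that overlaps Gm9846. The medians of the cholesterol and ribosomal lists were 0.056 and -0.18.

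**Figure D4:**
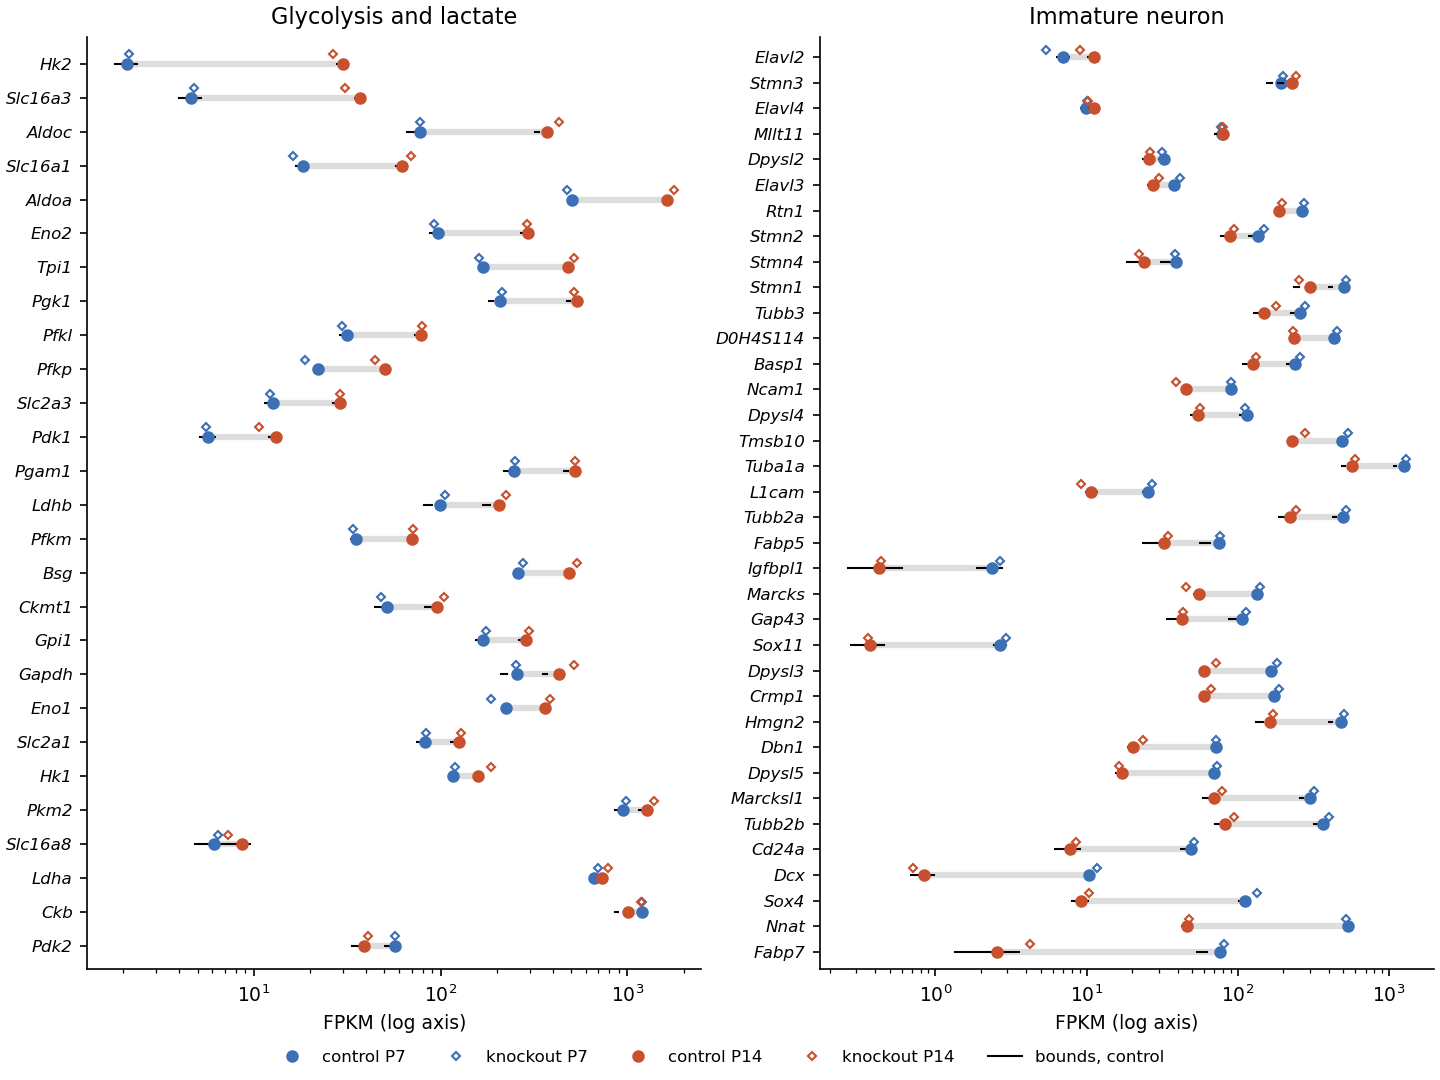
Levels in FPKM (log x axis) of glycolysis and lactate genes (left) and immature neuron genes (right), 1 row per gene ordered by the control difference. Circles are control and open diamonds Fezf2 KO libraries, blue P7 and orange P14, and black lines are the deposited bounds of the control levels. In the left panel 25 of 27 genes are higher at P14, and in the right panel 32 of 36 are lower.

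The immature neuron list, which also holds Fabp7, a gene not particular to neurons, had the lowest median. Of 36 tested, 22 were at least 2-fold lower at P14 (61.1% against 6.93% of all genes) and none 2-fold higher, with a median of -1.16 and of -1.17 in the KO pair. Dcx, doublecortin, which binds microtubules in migrating neurons, was at 10.3 and 0.837 FPKM (-2.62). Cd24a, a surface glycoprotein of young neurons, was at 49.3 and 7.76 FPKM (-2.52), and Marcksl1, an actin regulator, at 299 and 69.6 FPKM (-2.09). Dpysl3, Dpysl4, Dpysl5 and Crmp1, which encode collapsin response proteins of growth cones, were at least 2-fold lower, from -1.97 to -1.06, while Dpysl2 was at 32.4 and 25.8 FPKM (-0.32). Tuba1a, the alpha tubulin of growing neurites and one of the highest genes at P7, was at 1252 and 571 FPKM (-1.13). Elavl2, an RNA-binding protein, had the largest difference the other way, at 7.04 and 11.1 FPKM (0.59).

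Progenitor and proneural genes were lower too, 14 of 29 at least 2-fold and none 2-fold higher (median -0.95). Notch1 was at 13.1 and 2.63 FPKM (-1.95), its effector Hes5 at 18.2 and 4.06 FPKM (-1.92) and its ligand Dll1 at 6.69 and 2.35 FPKM (-1.20). Jag1, another Notch ligand, and the effector Hes1 were higher, at 4.83 and 10.2 FPKM (0.94) and 9.37 and 14.9 FPKM (0.62). Notch ligands and effectors therefore did not all differ in one direction. The cell cycle inhibitors Cdkn1a and Cdkn1c were at 16.5 and 4.80 FPKM (-1.59) and 34.2 and 14.2 FPKM (-1.21), and Cdkn1b at 38.6 and 42.5 FPKM (0.14).

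Replication and mitosis genes were low already at P7. Of 45 in the list, 15 were below 1 FPKM in both libraries, and among the 30 tested 7 were at least 2-fold lower and none 2-fold higher, with a median of -0.72. Members that pass the floor through P7 alone had to differ, so this count describes the members tested. Mcm7, of the replicative helicase, was at 16.8 and 5.13 FPKM (-1.53, at a locus that holds 3 microRNAs), Mcm2 at 5.98 and 2.08 FPKM (-1.18) and Rrm2, of ribonucleotide reductase, at 1.72 and 0.259 FPKM (-1.11). Ccnd1, the cyclin of retinal progenitors, was at 19.8 and 8.52 FPKM (-1.13), and Top2a, needed in mitosis, at 1.09 and 0.0612 FPKM (-0.98). Pcna, the polymerase clamp, was at 46.1 and 55.9 FPKM (0.27).

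The promoters of this list were searched in the same window for letters bound by cell cycle regulators: the CCAAT box CCAAT, the CHR element TTTGAA, and the E2F-type letters TTCCCGC and TTTGGCGC, on both strands. RefSeq promoters (GRCm38.p6) were matched for 36 of the 45 genes, 40 promoters in all. CCAAT stood in 80.0% of them against 37.95% of promoters of all genes tested, and TTTGAA in 42.5% against 11.0%. The 40 promoters include those of list members below 1 FPKM. Over all promoters, of genes tested or not, CCAAT stood in 37.4% and TTTGAA in 17.9%. TTCCCGC stood in 20.0% against 7.85% and TTTGGCGC in 15.0% against 0.939%. The 909 genes 2-fold lower at P14, as a whole, were near the background, with CCAAT in 36.2% and TTTGAA in 9.63%. The 4 promoters shown hold both elements and differ in how many copies they have, with CCAAT and TTTGAA, or their reverse strand ATTGG and TTCAAA, in capitals.
Mcm2, chr6:88898731-88899030, minus strand: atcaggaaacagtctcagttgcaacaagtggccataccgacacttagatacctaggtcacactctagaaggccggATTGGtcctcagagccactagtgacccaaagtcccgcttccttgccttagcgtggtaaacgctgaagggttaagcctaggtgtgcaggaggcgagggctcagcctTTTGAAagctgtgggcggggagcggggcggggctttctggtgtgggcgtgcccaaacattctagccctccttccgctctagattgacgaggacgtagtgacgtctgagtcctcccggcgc
Cdc20, chr4:118437294-118437593, minus strand: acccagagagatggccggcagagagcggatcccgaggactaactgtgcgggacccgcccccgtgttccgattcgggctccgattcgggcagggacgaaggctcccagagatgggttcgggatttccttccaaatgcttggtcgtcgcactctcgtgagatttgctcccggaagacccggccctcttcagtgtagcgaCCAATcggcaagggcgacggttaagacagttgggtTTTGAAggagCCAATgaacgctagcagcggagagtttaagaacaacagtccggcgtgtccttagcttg
Hmgb2, chr8:57511593-57511892, plus strand: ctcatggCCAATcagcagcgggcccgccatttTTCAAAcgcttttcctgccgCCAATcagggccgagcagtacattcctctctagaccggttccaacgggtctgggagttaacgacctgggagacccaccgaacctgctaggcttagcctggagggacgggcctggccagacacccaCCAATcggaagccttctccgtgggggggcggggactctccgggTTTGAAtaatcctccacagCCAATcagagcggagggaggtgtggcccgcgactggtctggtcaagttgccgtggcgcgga
Top2a, chr11:99024140-99024439, minus strand: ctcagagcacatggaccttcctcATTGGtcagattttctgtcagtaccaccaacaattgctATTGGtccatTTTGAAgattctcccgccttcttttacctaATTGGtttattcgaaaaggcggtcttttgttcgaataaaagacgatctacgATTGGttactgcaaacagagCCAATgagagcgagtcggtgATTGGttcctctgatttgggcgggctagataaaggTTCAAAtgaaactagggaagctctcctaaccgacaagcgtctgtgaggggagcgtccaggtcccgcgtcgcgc
Mcm2 held 1 of each element, whereas Top2a held 6 CCAAT boxes and 2 TTTGAA elements. Hmgb2, a chromatin protein of proliferating cells, held 4 and 2, and was at 25.8 and 12.6 FPKM (-0.98). The mitotic activator Cdc20 was at 1.91 and 0.388 FPKM (-1.07).

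Genes of axon guidance and adhesion were lower, 17 of 41 at least 2-fold and none 2-fold higher (median -0.91). Sema5b, a semaphorin that confines inner retinal neurites, was at 21.9 and 3.61 FPKM (-2.31), and Sema5a, which acts with it, at 11.8 and 4.88 FPKM (-1.12). Their receptor Plxna1 was at 18.3 and 6.68 FPKM (-1.33), and Plxna2 and Plxna4 had differences of -1.69 and -1.61. The receptor genes Dcc, Robo1 and Ephb2 were at 7.497 and 2.12 FPKM (-1.44), 7.53 and 2.59 FPKM (-1.25) and 27.6 and 7.73 FPKM (-1.71). Dscam, which keeps neurites of a cell type apart, was at 20.7 and 6.61 FPKM (-1.51). Ntn4, a netrin, had the largest difference the other way, at 4.003 and 5.54 FPKM (0.39).

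Chromatin, splicing and imprinted genes were lower on balance. Of 27 chromatin genes 7 were at least 2-fold lower and none 2-fold higher (median -0.62). Hmgb3, a high-mobility group protein, was at 52.9 and 11.6 FPKM (-2.09) and Tet3, a methylcytosine dioxygenase, at 55.1 and 15.6 FPKM (-1.75). Of 32 splicing regulators 6 were at least 2-fold lower and none 2-fold higher (median -0.54). Srrm4, the activator of neuronal microexons, was at 39.0 and 9.32 FPKM (-1.95, at a locus that overlaps 2410137F16Rik), and Ptbp1, a repressor of neuronal splicing, at 35.4 and 16.1 FPKM (-1.09), so genes of opposite roles were both lower. Of 22 imprinted and fetal growth genes 7 were at least 2-fold lower and 1 at least 2-fold higher. The growth factor Igf2 was at 32.6 and 13.3 FPKM (-1.23) and the retroelement-derived Peg10 at 5.98 and 1.46 FPKM (-1.50), whereas Impact, a translation regulator, was at 12.3 and 59.0 FPKM (2.17) and Meg3 at 37.2 and 31.5 FPKM (-0.23).

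Genes of apoptosis lay on both sides. Of 24 tested, 6 were at least 2-fold lower and 3 at least 2-fold higher (median -0.54). The lower ones included Trp53 at 24.0 and 6.10 FPKM (-1.82), Bbc3 at 8.83 and 1.73 FPKM (-1.85), Cdkn1a, Bcl2l11 (-1.22) and Bok (-1.06). Xiap, an inhibitor of apoptosis, was at 27.4 and 76.2 FPKM (1.44), and Bcl2l2, a survival member of the Bcl2 family, at 23.3 and 55.6 FPKM (1.22). Bcl2, its relative, was at 1.29 and 1.36 FPKM (0.041).

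Long noncoding RNAs had no common direction. Of 24 tested, 4 were at least 2-fold higher (16.7% against 7.09% of all genes) and 2 at least 2-fold lower (8.33% against 6.93%). Vax2os2 and Vax2os1, which overlap each other, were at 1.73 and 18.6 FPKM (2.85) and 5.12 and 30.3 FPKM (2.36), and Vax2os2 also overlaps Vax2. Neat1, which builds nuclear paraspeckles, was at 0.480 and 2.60 FPKM (1.28) and Dleu2, at a locus that holds other genes, at 0.372 and 3.16 FPKM (1.60). Miat, which is known from retinal precursors, was at 11.3 and 2.59 FPKM (-1.78).

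Histone genes were examined as families chosen after their values were seen. Their counts stand beside 7.09% of all genes tested at least 2-fold higher and 6.93% at least 2-fold lower. All 14 tested genes of the Hist1h2b group, which encode core histone H2B, were at least 2-fold higher at P14 (median 2.52, and 2.57 in the KO pair), as were 3 of 9 Hist1h4 genes and none of 11 Hist1h2a genes (medians 0.75 and 0.28). Hist1h2bc was at 7.25 and 104 FPKM (3.67), and the other H2B genes were between 2.44 FPKM for Hist1h2be and 22.04 FPKM for Hist1h2bj at P14. These genes are near-identical copies among which short reads may be split, so their single values are uncertain. Of the linker histones Hist1h1c was at 11.1 and 76.4 FPKM (2.68), Hist1h1e at 0.291 and 4.23 FPKM (2.02), H1fx at 39.2 and 13.8 FPKM (-1.44) and H1f0 at 77.4 and 63.4 FPKM (-0.28). The 92 other genes spanning under 1 kb had a median of -0.00547, with 7 at least 2-fold higher and 5 at least 2-fold lower.

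Other families were likewise chosen after their values were seen, so their counts describe the members only. The shares over all genes tested were 7.09% at least 2-fold higher and 6.93% at least 2-fold lower. None of 56 clustered protocadherins, which give neurons a surface identity, was 2-fold higher and 8 were 2-fold lower (median -0.67), although these genes share exons and their levels are uncertain. None of 11 Sox factors was higher at all, and 4 were at least 2-fold lower, with Sox12 at 33.6 and 7.38 FPKM (-2.05). Of 60 genes with potassium channel symbols 15 were at least 2-fold higher and 1 at least 2-fold lower, the latter Kcne1l at 37.8 and 8.40 FPKM (-2.05). Of 17 regulators of G protein signalling 3 were at least 2-fold higher, led by Rgs20 at 1.78 and 22.1 FPKM (3.05), and 1 at least 2-fold lower, Rgs12 at 11.0 and 3.82 FPKM (-1.32). Spc25, a kinetochore gene, was at 11.2 and 133 FPKM (3.45), while the other 3 subunits of its complex were below 1 FPKM at both ages.

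Genes of vessels and of microglia, the resident macrophages, differed member by member. Of 29 endothelial and pericyte genes 2 were at least 2-fold higher (6.90% against 7.09% of all genes) and 3 at least 2-fold lower (10.3% against 6.93%), shares near those of all genes. Those lower, Aplnr at 5.70 and 0.792 FPKM (-1.90), Angpt2 at 7.99 and 1.82 FPKM (-1.67) and Kdr at 63.8 and 19.7 FPKM (-1.65), are known from vessel sprouting. Slco1a4, a transporter of the blood-retina barrier, was at 0.619 and 6.198 FPKM (2.15), and the general markers Cldn5 and Pecam1 were at 24.5 and 19.7 FPKM (-0.30) and 4.69 and 4.22 FPKM (-0.12). Cdh5, another endothelial marker, was at 3.94 and 2.06 FPKM. Kdr stood far above Pecam1 and Cdh5 in level, and whether its reads came from vessels alone was not tested. Of 19 microglial genes 8 were at least 2-fold lower and none 2-fold higher (median -0.64), with Lyz2 at 7.40 and 1.56 FPKM (-1.72), C1qa at 16.6 and 7.45 FPKM (-1.06) and Trem2 at 5.78 and 1.85 FPKM (-1.25). In any amount, 16 of the 19 were lower and 3 higher. P2ry12 was at 2.08 and 2.06 FPKM (-0.0085). Tmem119, with the highest difference of the list, was at 0.402 and 1.47 FPKM (0.82). The microglia markers Cx3cr1 and Csf1r were at 3.27 and 2.19 FPKM and 6.12 and 3.57 FPKM.

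Lists of genes of tissues next to the neural retina had unlike medians in the control and KO pairs, though not every member differed between them. Of 24 matrix and vitreous genes 8 were at least 2-fold lower and 3 at least 2-fold higher, with a median of -0.50 in the control pair and -1.21 in the KO pair. Col2a1, the fibrillar collagen of the vitreous, was at 40.5 and 7.12 FPKM (-2.35, and -2.49 in the KO pair). Optc, opticin of the vitreous and ciliary body, was at 3.22 and 39.1 FPKM in the control and 19.5 and 4.17 FPKM in the KO pair. Of 16 pigment epithelium genes 6 were at least 2-fold higher and 1 at least 2-fold lower (median 0.75, KO 0.24). Rpe65 was at 1.84 and 20.9 FPKM (2.95, and 2.53 in the KO pair). The pigment genes Tyrp1 and Dct were at 3.92 and 4.37 FPKM (0.13) and 15.9 and 19.6 FPKM (0.28). In the KO pair Dct was at 20.8 and 11.9 FPKM. Rgr, which this list shares with Mueller glia, was at 9.47 and 49.0 FPKM (2.26, and 1.55 in the KO pair). Of 9 lens genes 2 were at least 2-fold higher (median 0.33, KO -0.56), and Mip, a defining lens gene, stayed below 1 FPKM.

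Red blood cell genes had the highest median of any list in the control pair, 1.95, with 6 of 8 at least 2-fold higher, but -0.017 in the KO pair. Hba-a1, an alpha globin, was at 216 and 826 FPKM in the control and 232 and 247 FPKM in the KO pair, and Hbb-b1, a beta globin, at 28.5 and 131 FPKM and 30.5 and 57.9 FPKM. Their summed level was 469 FPKM at P7 and 1677 FPKM at P14 in the controls, and 540.3 and 576 FPKM in the KO libraries. The part of tissue and blood carried over at dissection in these lists was not tested.

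Clock and activity-regulated genes differed in single members. Of 22 clock genes 4 were at least 2-fold higher (18.2% against 7.09% of all genes) and 1 at least 2-fold lower (4.55% against 6.93%). Their median was 0.039. Dbp and Hlf, related output factors of the clock, were at 36.6 and 123 FPKM (1.72, at a locus that overlaps Sphk2) and 13.9 and 47.0 FPKM (1.69). Arntl, the core activator, was at 46.6 and 23.5 FPKM (-0.96) and Per2 at 3.46 and 2.85 FPKM (-0.21). The labels do not give the time of day of dissection. Of 24 immediate early genes 8 were below 1 FPKM in both control libraries. Of the 16 tested, 1 was at least 2-fold higher (6.25% against 7.09% of all genes), Fos at 2.94 and 9.94 FPKM (1.47). At least 2-fold lower were 2 (12.5% against 6.93%), Ier5 at 26.4 and 10.1 FPKM (-1.31) and Btg2 at 64.7 and 28.1 FPKM (-1.17). The median of the immediate early list was -0.010 in the control and 0.46 in the KO pair.

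Some genes crossed from below 1 FPKM to 5 FPKM or more, and others the reverse. The 33 that were below 1 FPKM at P7 and at 5 FPKM or more at P14 included the peptide genes Cck and Vip and the surface antigen gene Ly6c1, at 0.992 and 19.8 FPKM (3.38). Among them were also Wisp1, a secreted matricellular protein, at 0.666 and 11.9 FPKM (2.96), Bcl6, a transcriptional repressor, at 0.720 and 6.44 FPKM (2.11), and Il34, a cytokine, at 0.810 and 6.88 FPKM (2.12). Csf1r, the gene of its receptor on microglia, was at 6.12 and 3.57 FPKM (-0.64). The 15 genes that were at 5 FPKM or more at P7 and below 1 FPKM at P14 included Dcx, H19 and Mex3a, the Polycomb subunit Cbx2 at 6.47 and 0.919 FPKM (-1.96), and Pnoc, the precursor of nociceptin, at 5.15 and 0.189 FPKM (-2.37). In the KO pair 31 of the 33, all but Hba-a2 and Fbln1, were higher at P14, and 15 of the 15 were lower, Amd1 by almost nothing.

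The differences in the control pair were close to those of the KO pair. Of the 930 genes 2-fold higher in the control, 756 (81.3%) were so in the KO pair, and they made up 74.9% of the KO list. Of the 906 genes 2-fold lower that had a KO value, 752 (83.0%) were so in the KO pair, 73.1% of the KO list. The background in the KO pair was 7.73% higher and 7.89% lower of 13048 genes. Across the 13112 genes with both values, which are not independent replicates, Pearson's r of the differences was 0.934 and Spearman's rank correlation 0.933.

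Of 1836 genes past 2-fold in the control, 15 differed in the other direction in the KO pair, and 7 of these with bounds apart in both pairs. The 7 were the vitreous and ciliary body genes Optc and Best2, the matrix gene Fbln1, the lens gene Cryaa, the alpha globin gene Hba-a2, the ribosomal protein gene Rps27 and Fam129a. Cryaa was at 0.122 and 4.63 FPKM in the control and 4.43 and 0.0779 FPKM in the KO pair, and Best2 at 0.0224 and 1.42 FPKM and 0.463 and 0.0429 FPKM. Fbln1, the matrix protein fibulin-1, was at 0.716 and 5.37 FPKM and 1.85 and 0.552 FPKM. No photoreceptor, bipolar, glial, glycolysis or immature neuron list member was among them. With only 7 of 1836 genes, that absence tells nothing about these lists.

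**Figure D5:**
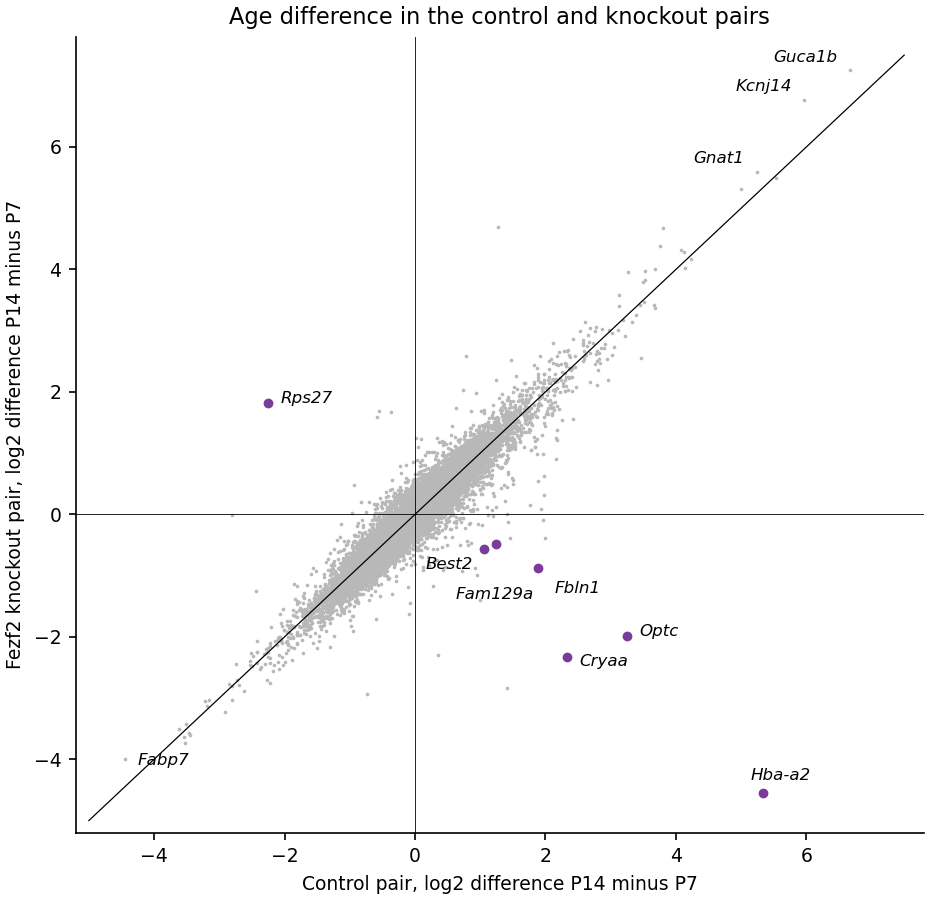
Difference between P14 and P7 in the control pair (x axis) and in the Fezf2 KO pair (y axis), log2 scale on FPKM + 1, 1 point per gene with both values. The diagonal marks equal differences. Purple points are the 7 genes past 2-fold in the control whose bounds stand apart in opposite directions in the pairs.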

How the data were processed

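Total RNA of whole retina was made into cDNA with random primers and read as 36-base single ends, per the labels' protocols, which name no strand marking. The submitters' processing notes name Cufflinks 2.1.1, TopHat2 2.0.8b, CASAVA 1.8.2 and mm9, while annotation and options were not given in the sources used here. The deposited FPKM of each gene comes with 2 bounds and a status flag, per the file headers. FPKM exceeded its own upper bound at 2176 loci at P7 and 1809 at P14, so bounds were compared only with bounds. FPKM holds no read counts and no count test was run.

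Loci of one symbol were summed (251 symbols), and 740 small RNAs or loci under 300 bases and 11 symbols with a failed value were left out. Of the 21807 symbols kept, 8690 were below 1 FPKM in both control libraries. A gene counted as higher or lower at a 2-fold difference of FPKM + 1. Counts cover counting error only where bounds are named, and amplified reads are not independent molecules. Python 3.11.15, numpy 2.4.6, pandas 2.3.3 and matplotlib 3.10.9 were used.

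The members, 39 gene lists and rules were chosen with earlier results of these data known. Genes named were the 15 highest and 15 lowest differences at 2 FPKM or more with bounds apart, at 1 locus and outside X and Y, up to 4 per list, all cascade, photoreceptor factor and paired genes, the 6 highest levels at each age and the 5 called genes furthest from the KO pair. Some genes that these rules cover are not reported here. Other members were named for their roles, and families, promoters shown and genes crossing 1 and 5 FPKM after their values were seen. The 5 furthest from the KO pair were Hba-a2, Optc, Cryaa, Rps27 and Hist2h2aa2. Alternatives were a pseudocount of 0.1 FPKM, rescaling to 1000000, median centring, floors of 5 FPKM and none, small RNAs kept, and a fold with bounds apart.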

Additional observations from a re-analysis of the deposited data

Results flagged for a closer look

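Of the genes past 2-fold in the control pair, 4 were past 2-fold the other way in the KO pair, with bounds apart in both. The difference between the pairs was not tested, since each group had 1 library. Hba-a2, an alpha globin gene, had a difference of 5.33 in the control pair and -4.54 in the KO pair, at 0.0201 and 40.1 FPKM in the controls and 22.8 and 0.0186 FPKM in the KO libraries. It overlaps Hba-a1, a near-identical copy, so its value is uncertain. Optc, of the vitreous and ciliary body, had a difference of 3.25 in the control and -1.99 in the KO pair, at 3.22 and 39.1 FPKM and 19.5 and 4.17 FPKM. Cryaa, a lens crystallin, had 2.33 and -2.33, with all 4 levels below 5 FPKM. Rps27, a ribosomal protein gene at a locus that overlaps Gm9846, had -2.26 and 1.82, at 26.8 and 4.82 FPKM in the controls and 6.06 and 23.9 FPKM in the KO libraries.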

How the results depend on the processing

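The main counts were 930 genes 2-fold higher and 909 lower. With a pseudocount of 0.1 FPKM the lower count was 1381, and with levels rescaled to sum to 1000000 it was 1514, both over 1.5 times the main count. The other counts lay within 1.5 times, from 710 to 1377 higher and from 740 to 989 lower. Rescaling moved the median of all genes from -0.082 to -0.18, and the share of calls that were higher from 50.6% to 41.5%. Centring on the median of all genes gave 60.1%. No named gene past 2-fold could change sign, since a pseudocount keeps the sign and rescaling and centring shift differences little. Under these settings 182 differences of named genes left the range spanned by their bounds and 481 stayed within it. Rescaling alone moved 91 of the 221 named genes. Over the 39 lists and with floors included, 15 medians left the range of their bounds and 180 stayed. No list median past 2-fold changed sign, while 7 list medians near 0 did under some setting. These were the ganglion cell, sodium and calcium channel, developmental pair, cholesterol, clock, immediate early and noncoding RNA lists. No paired analysis was possible because each group had 1 library, and for the same reason no library could be left out. Depth limits genes near 1 FPKM, where bounds are widest.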

Other observations

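Genes with longer loci were lower at P14 slightly more often. Of 1841 genes spanning under 5 kb 6.41% were at least 2-fold lower and 9.02% at least 2-fold higher, with a median difference of 0.026. Of 1797 genes spanning 100 kb or more 10.3% were at least 2-fold lower and 5.29% at least 2-fold higher, with a median of -0.17. These are shares of genes within 1 pair of libraries.

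Several families had no list of their own. Of 15 lysine demethylase genes 6 were at least 2-fold lower and none 2-fold higher, with Kdm6b, which removes the Polycomb mark, at 36.5 and 10.5 FPKM (-1.71). Of 18 ribonucleoprotein genes with Hnrnp symbols 4 were at least 2-fold lower, and 1, Hnrnph3, at least 2-fold higher, at 5.01 and 24.2 FPKM (2.07). Carbonic anhydrase genes were higher in all 10 tested, 3 of them at least 2-fold, with Car8 at 5.67 and 20.5 FPKM (1.69). None of 37 proteasome genes was past 2-fold either way. These families were chosen after their values were seen, so their counts describe the members only. Over all genes tested 7.09% were at least 2-fold higher and 6.93% at least 2-fold lower.

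Hist2h2aa2, a core histone gene that overlaps its copy Hist2h2aa1, was at 0.00206 and 1.65 FPKM in the control pair and at 12.5 and 0.882 FPKM in the KO pair.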
